A study of Mus musculus with 2 samples.

Results

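The hyaluronan genes described here are Has1, Has2, Ugdh, Gfpt2, Tnfaip6 and Cd44, 6 of the 32285 features measured, taken by gene symbol from the count matrices. They were proposed with the levels of these same libraries in view, so their levels and ratios by cell class are given as a description and carry no test. The libraries are 1 of No-Touch vein grafts and 1 of conventional vein grafts, both of C57BL6/J mice 10-12 weeks old. In vein graft surgery, a No-Touch graft is a vein moved with the tissue around it left on, whereas a conventional graft is stripped of that tissue. In both, grafts were digested first with papain, later with added collagenase and dispase, live nucleated cells without surface CD45 (the common antigen of leukocytes) were sorted, and RNA was captured on the 10x Genomics 3′ platform. The labels do not say how many animals or grafts were pooled, how long the grafts had been in place, or which of 2 versions of the 10x kit served which library. With 1 library per group, every difference compares these libraries, not the kinds of graft, and no p-value or standard error can be given. Intervals in parentheses are exact at 95% and cover counting error only.

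Hyaluronan is a very long sugar polymer of the extracellular matrix. It is made at the cell membrane by hyaluronan synthases, which join UDP-glucuronic acid and UDP-N-acetylglucosamine and push the growing chain out of the cell. Outside, proteins such as Tnfaip6 cross-link it, and cells bind it through receptors such as Cd44. In the vessel wall it gathers in the adventitia and in thickened intima, and it is known for its part in the matrix that forms after injury and vein grafting.

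The No-Touch library kept 10462 cells with a median of 27495 UMIs (unique transcript tags) per cell, and the conventional library kept 10211 cells with a median of 16610 UMIs. The libraries shared 22 cell barcodes. Cells were assigned to classes by markers, and 6 classes held at least 50 cells in both libraries, the largest being fibroblasts with 8276 No-Touch and 6697 conventional cells. Fibroblast-gated cells had 66 No-Touch and 109 conventional cells near the gate's limit. Levels are in CPM, a gene's UMIs scaled to 1000000 UMIs of the class in that library. A gene was counted as higher or lower when the levels were at least 1.5 times apart and at least 10 CPM in either library, and log2 ratios are of the level + 1. Libraries differed in other RNA too: in fibroblasts the summed parathyroid markers, led by Pth, stood at 15.7 in the No-Touch and 239 CPM in the conventional library, and their part in the differences was not tested.

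The start regions of Has1, Tnfaip6 and Gfpt2 are shown because these 3 genes, all high in fibroblasts, differed between the libraries in size and direction. Sequences are from RefSeq on GRCm38.p6 (the mm10 assembly), cut so that they end before both the RefSeq and the GENCODE start of the gene, and run 5′ to 3′ on the gene's strand. RefSeq's table held a window for 5 of the 6 genes, all but Has2. Capitals mark matches to 5 motifs searched on both strands: TGANTCA (the AP-1 site), TGACGTCA (the cyclic AMP response element), TATAAA, the NF-kappaB consensus and the CArG box.
Has1, chr17:17855206-17855438, minus strand: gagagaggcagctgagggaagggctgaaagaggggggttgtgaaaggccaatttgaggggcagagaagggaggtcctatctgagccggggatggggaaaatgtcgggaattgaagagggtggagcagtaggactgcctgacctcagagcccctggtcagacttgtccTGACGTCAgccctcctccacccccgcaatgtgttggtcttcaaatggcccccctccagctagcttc
Tnfaip6, chr2:52037863-52038008, plus strand: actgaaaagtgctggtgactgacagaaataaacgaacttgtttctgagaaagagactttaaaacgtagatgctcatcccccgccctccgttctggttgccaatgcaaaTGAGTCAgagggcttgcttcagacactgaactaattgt
Gfpt2, chr11:49793905-49794154, plus strand: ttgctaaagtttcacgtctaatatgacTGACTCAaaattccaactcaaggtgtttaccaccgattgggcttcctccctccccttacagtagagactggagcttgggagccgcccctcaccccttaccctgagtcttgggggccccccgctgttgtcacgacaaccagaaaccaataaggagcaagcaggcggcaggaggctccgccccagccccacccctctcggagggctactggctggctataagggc
The Has1 window of 233 bases held 1 match, TGACGTCA, starting 83 bases before the RefSeq start, and 1.32% of 32851 RefSeq windows of that length held this motif. The Tnfaip6 window of 146 bases held TGANTCA 142 bases before the RefSeq start, found in 3.86% of windows of that length. The Gfpt2 window of 250 bases held TGANTCA 223 bases before the RefSeq start, found in 6.75% of windows of that length. These matches describe the letters only, and the windows held none of the other motifs.

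Has1 stood at a higher level in the No-Touch library in each of the 6 cell classes. Has1 (chromosome 17, 17843323 to 17855205) encodes a hyaluronan synthase. In fibroblasts it stood at 679 CPM (676 to 682) in the No-Touch and 252 (249 to 254) in the conventional library, a ratio of 2.70 (2.67 to 2.73). Fibroblasts held the highest level of the 6 classes in both libraries.

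Outside fibroblasts, Has1 lay in a narrow band in each library. In No-Touch cells it was 119 CPM (87.9 to 158) in neutrophils, 113 (101 to 125) in Schwann cells, 91.7 (85.4 to 98.3) in mural cells, 88.9 (79.3 to 99.3) in lymphatic endothelium and 84.6 (78.6 to 91.0) in blood endothelium. In conventional cells the same classes held 36.9 (26.4 to 49.998), 28.0 (20.3 to 37.5), 30.5 (27.2 to 34.0), 16.9 (13.0 to 21.7) and 14.96 (12.9 to 17.3) in that order. Neighbours in the order of levels overlapped in their intervals, except that No-Touch Schwann cells stood above mural cells.

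Neutrophils and T or NK cells, leukocytes that the CD45 sort left behind and that should not transcribe the synthases, set the background from free RNA. With each cell thinned to 3000 UMIs, Has1 was seen in 64.8% (63.8 to 65.8) of No-Touch and 38.8% (37.6 to 40.0) of conventional fibroblasts. It was also seen in 32.5% (22.4 to 43.9) of No-Touch and 10.1% (5.74 to 16.1) of conventional neutrophils, and in 31.6% (23.2 to 40.9) of No-Touch T or NK cells. The shares in mural cells, both endothelial classes and Schwann cells lay between 20.98% and 31.1% in the No-Touch and between 3.75% and 7.71% in the conventional library, all at or below the leukocytes' shares. Has1 in these classes is therefore not told apart from background here, and is read neither as expression nor as a difference. Neutrophils were shallower than these classes, so free RNA can make up more of each cell. A share at or below theirs thus cannot show that expression is absent. Of the 396 conventional neutrophils, 247 had fewer than 3000 UMIs and were left out of the thinned share. Without thinning, at median depths of 31470 and 20169 UMIs, the shares in fibroblasts were 95.7% and 75.3%, and at 4384 and 2704 UMIs those in neutrophils were 41.2% and 9.85% (No-Touch and conventional in each pair). With the neutrophil level taken off, the fibroblast ratio of Has1 was 2.61. Treated the same way, Has2 had a ratio of 1.60, Ugdh 1.35, Gfpt2 0.676 and Tnfaip6 1.17. Cd44, higher in neutrophils than in fibroblasts, had none.

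**Figure D1:**
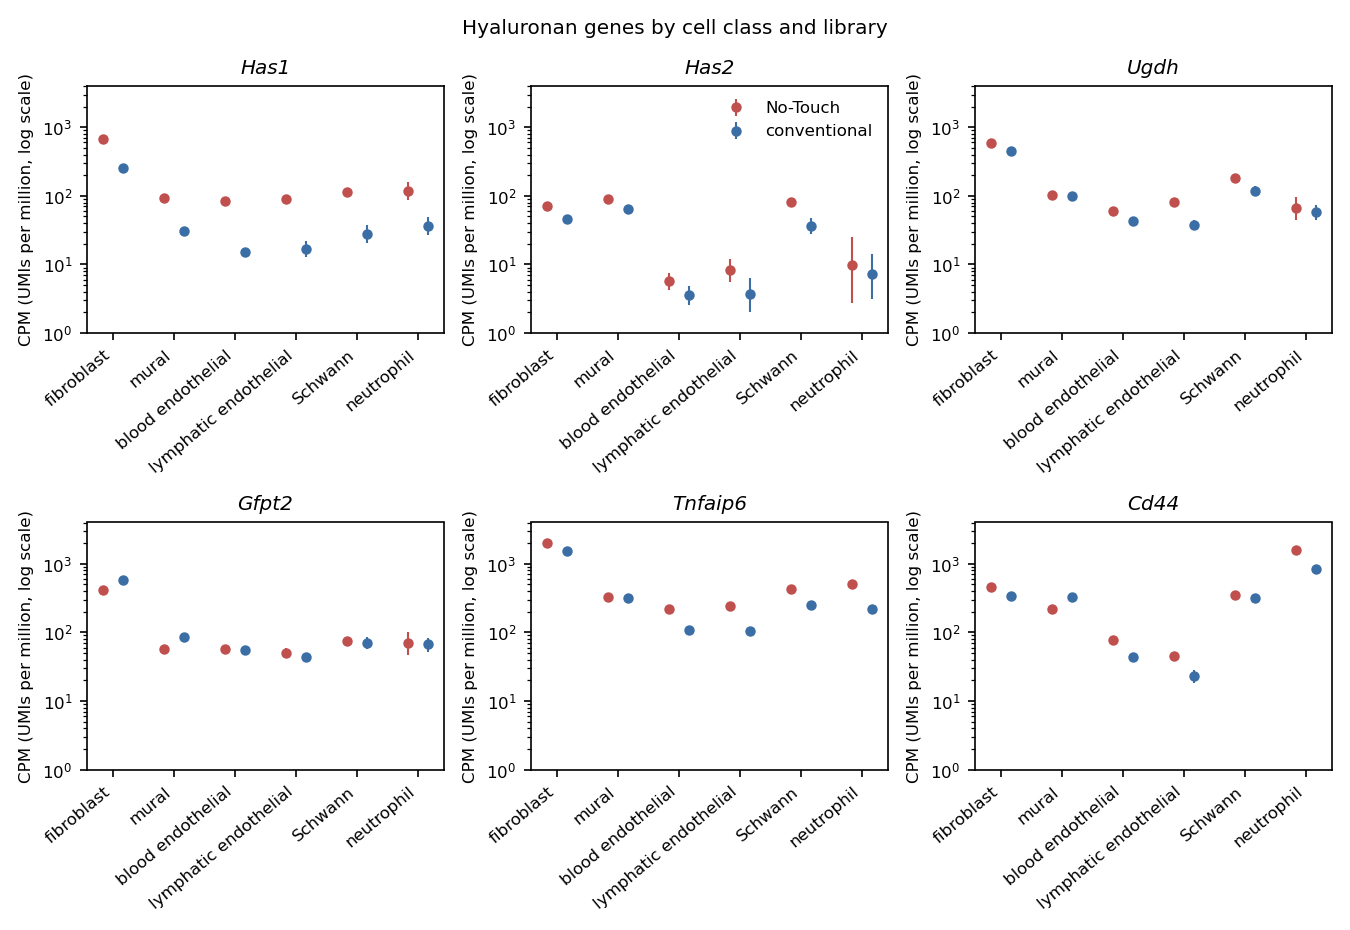
Level of each gene in CPM (log scale) in 6 cell classes, No-Touch in red and conventional in blue, with 95% counting intervals. Has1, Ugdh, Gfpt2 and Tnfaip6 are highest in fibroblasts, Has2 lies between 36.9 and 90.6 CPM in fibroblasts, mural and Schwann cells, and Cd44 is highest in neutrophils.

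Has2 followed another pattern over the classes. Has2 (chromosome 15, 56665627 to 56694539) encodes the synthase that mouse embryos need for the heart and vessels. Its levels were 90.6 CPM (84.3 to 97.1) in No-Touch and 63.6 (58.8 to 68.7) in conventional mural cells, which take in smooth muscle cells and pericytes. Fibroblasts held 72.0 (71.1 to 73.0) in the No-Touch and 46.0 (44.9 to 47.1) in the conventional library, a ratio of 1.57 (1.52 to 1.61). Schwann cells held 80.7 (70.8 to 91.6) and 36.9 (28.0 to 47.7), a ratio of 2.19 (1.64 to 2.97). Mural cells stood above fibroblasts in both libraries, while Schwann cells overlapped both classes in the No-Touch library and fibroblasts in the conventional library.

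Endothelium and neutrophils were low in Has2, at 5.67 to 9.93 CPM in the No-Touch and 3.55 to 7.19 in the conventional library. In thinned cells Has2 was seen in 0 of 80 No-Touch neutrophils, which by the rule of 3 counts allows a share of up to 3.75% (4.51% by the exact interval), and in 2.01% (0.417 to 5.77) of conventional ones. Without thinning it was seen in 4.71% (1.30 to 11.6) of No-Touch and 2.02% (0.876 to 3.94) of conventional neutrophils. The shares were 15.2% and 9.77% in fibroblasts, 15.3% and 14.7% in mural cells and 15.6% and 5.59% in Schwann cells (No-Touch and conventional in each pair). Fibroblasts and mural cells thus stood above the neutrophils' intervals in both libraries. Conventional Schwann cells overlapped neutrophils in the thinned share (2.59 to 10.3, in percent) but stood above them in level, with 36.9 against 7.19 CPM (3.105 to 14.2). The antisense gene Has2os overlaps Has2 on the other strand, and it stood at 6.96 in No-Touch and 7.10 CPM in conventional fibroblasts. The sources used here do not say whether counting used the strand, so the split of reads between Has2 and Has2os is uncertain.

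**Figure D2:**
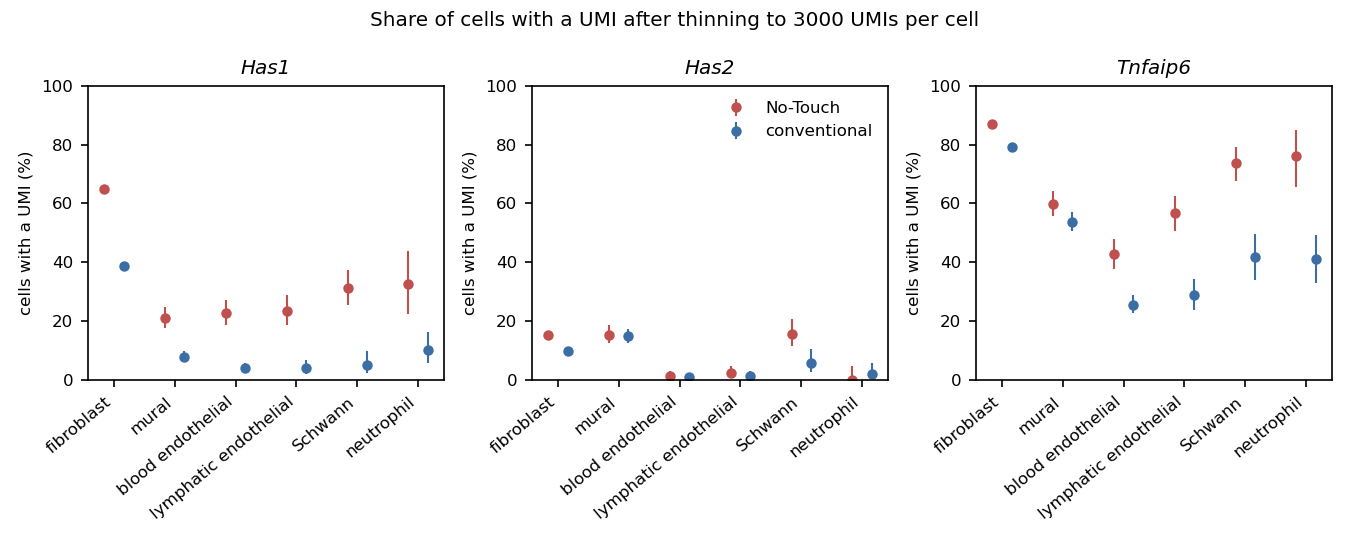
Percent of cells with at least 1 UMI of Has1, Has2 or Tnfaip6 after thinning each cell to 3000 UMIs, by class, No-Touch in red and conventional in blue, with exact 95% intervals. Neutrophils show the background: 32.5% and 10.1% for Has1, but 0% and 2.01% for Has2 (No-Touch and conventional).

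Of the precursor enzymes, Ugdh was higher and Gfpt2 lower in No-Touch fibroblasts, each by less than 1.5 times. Ugdh (chromosome 5, 65413221 to 65435949) encodes UDP-glucose dehydrogenase, which makes UDP-glucuronic acid. It stood at 594 CPM (592 to 597) in No-Touch and 449 (446 to 452) in conventional fibroblasts, a ratio of 1.32 (1.31 to 1.34). Gfpt2 (chromosome 11, 49794178 to 49838613) encodes an enzyme of the first step of the hexosamine pathway to UDP-N-acetylglucosamine. It stood at 420 CPM (418 to 423) in No-Touch and 586 (582 to 589) in conventional fibroblasts, a ratio of 0.718 (0.711 to 0.724). Gfpt2 was the only gene of the 6 with a lower level in No-Touch fibroblasts. After thinning, Ugdh was seen in 56.8% of No-Touch and 47.8% of conventional fibroblasts, and Gfpt2 in 55.3% of No-Touch and 62.9% of conventional ones, so the shares of cells lay in the same direction as the levels.

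In the other classes with at least 50 cells in both libraries, both enzymes were much lower than in fibroblasts. In mural cells Gfpt2 stood at 56.3 (51.5 to 61.6) in the No-Touch and 85.4 (79.8 to 91.2) in the conventional library, a ratio of 0.660 (0.590 to 0.738). No-Touch neutrophils held 69.5 (46.2 to 100) and conventional ones 66.5 (52.2 to 83.5), and No-Touch T or NK cells 36.9 (28.0 to 47.7). In thinned cells Gfpt2 was seen in 17.4% (14.3 to 20.9) of No-Touch and 22.4% (19.7 to 25.2) of conventional mural cells. The share was 20% (11.9 to 30.4) in No-Touch and 12.1% (7.32 to 18.4) in conventional neutrophils, and 8.77% (4.29 to 15.5) in No-Touch T or NK cells. Mural Gfpt2 thus stood above neutrophils by share in the conventional library, and between the leukocytes in the No-Touch library. Ugdh was above the neutrophils' 67.0 (44.2 to 97.5) and 57.5 (44.3 to 73.5) in Schwann cells, with 181 (166 to 197) in the No-Touch and 119 (103 to 138) in the conventional library. In mural cells Ugdh stood at 103 (96.2 to 110) and 100 (94.2 to 107), a difference within counting error.

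Tnfaip6 and Cd44, which bind hyaluronan, were both 1.3 times higher in No-Touch fibroblasts. Tnfaip6 (chromosome 2, 52038009 to 52056686) encodes TSG-6, a secreted protein of inflammation that moves heavy chains onto hyaluronan. It stood at 2008 CPM (2003 to 2013) in No-Touch and 1513 (1506 to 1519) in conventional fibroblasts, a ratio of 1.33 (1.32 to 1.33). Neutrophils held 499 (432 to 573) in the No-Touch and 220 (194 to 250) in the conventional library. Blood endothelium held 216 and 108, and lymphatic endothelium 240 and 106, all below the neutrophils. In thinned cells Tnfaip6 was seen in 76.3% of No-Touch and 40.9% of conventional neutrophils, against 87.0% of No-Touch and 79.2% of conventional fibroblasts. No-Touch T or NK cells held less than neutrophils, 222 CPM (199.5 to 247) with a thinned share of 51.8% (42.2 to 61.2). The endothelial values lay at or below one of these leukocyte levels in each library and are not told apart from background. Whether the leukocytes transcribe Tnfaip6 was not tested, so lying below them cannot show that a value is background. In the conventional library neutrophils were the only such reference, as it held 4 T or NK cells. Mural cells held 331 (319 to 343) in the No-Touch and 317 (306 to 328) in the conventional library, a difference within counting error, and their thinned share of 53.7% (50.5 to 56.98) in the conventional library lay above that of its neutrophils. The No-Touch mural level lay above T or NK cells and below neutrophils.

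Cd44 was the exception among the 6 in being high in leukocytes. Cd44 (chromosome 2, 102811141 to 102901665) encodes the main cell surface receptor of hyaluronan. Neutrophils held 1569 CPM (1449 to 1696) in the No-Touch and 840 (787 to 895) in the conventional library. In fibroblasts it stood at 452 (449 to 454) and 341 (338 to 344), a ratio of 1.32 (1.31 to 1.34), and in Schwann cells at 355 (334 to 377) and 315 (288 to 344). Mural cells went the other way, with 219 (209 to 229) in the No-Touch and 326 (315 to 337) in the conventional library, a ratio of 0.672 (0.635 to 0.711). Blood endothelium held 76.2 (70.5 to 82.2) and 43.2 (39.6 to 47.1), and lymphatic endothelium 44.5 (37.8 to 52.0) and 22.8 (18.2 to 28.2). Endothelium thus had the lowest Cd44 in both libraries, below every other class with 50 cells in both.

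Genes past the limit were counted in the 6 classes except neutrophils, which served as background. In No-Touch fibroblasts 2 of the 6 genes (Has1 and Has2) were higher by at least 1.5 times and 0 were lower. The same limit was passed by 7.92% of 8445 genes upward and 3.64% downward, and since the genes were chosen on these levels nothing is read from that contrast. In mural cells 1 was higher (Has1) and 1 lower (Gfpt2), beside 13.1% and 7.12% of all genes. With clusters in place of the gate the mural log2 ratio of Gfpt2 was -0.25, short of the limit, against -0.59 with the gate. In blood endothelium 3 of the 5 that reached 10 CPM were higher (Has1, Tnfaip6 and Cd44), and 0 lower, beside 13% and 6.64% of all genes. In lymphatic endothelium 4 of 5 were higher (those and Ugdh), and 0 lower, beside 10.2% and 8.08% of all genes. With cells thinned to 3000 UMIs the log2 ratio of Cd44 was 0.55 in blood and 0.27 in lymphatic endothelium, both short of the limit. These endothelial counts rest largely on levels at or under those of neutrophils. Blood endothelium clustered into 9 groups, of which 0 held 50 cells from both libraries (the group led by Apod and Fjx1 held 251 No-Touch and 36 conventional cells, that led by Csf3 and Slco2b1 1 and 357), so no like groups could be set side by side there. In Schwann cells 4 of 6 were higher (Has1, Has2, Ugdh and Tnfaip6), and 0 lower, beside 13.7% and 8.71% of all genes. Has1 there had thinned shares within the neutrophils' intervals or below them. Tnfaip6 was seen in 73.8% (67.8 to 79.2) of thinned No-Touch Schwann cells, above the T or NK cells and within the neutrophils' interval.

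Not all fibroblast-gated cells were alike, and 2 of the whole-data clusters among them had leading genes that include a marker of another class. One was led by Gdf10, Fmo2 and Abcc9 and held the mural marker Kcnj8, and the other was led by Myog and Nkain4 and held the mesothelial marker Wt1. Without these clusters, 6063 No-Touch and 6393 conventional fibroblasts remained. The log2 ratios were then 1.45 for Has1, 0.84 for Has2, 0.57 for Ugdh, -0.35 for Gfpt2, 0.53 for Tnfaip6 and 0.58 for Cd44. All 6 kept their direction.

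Fibroblasts were then divided by markers into states present in both libraries, to set like cells beside like. The states were Pi16 cells (Pi16, Dpp4, Anxa3, Cd55; 1397 No-Touch and 681 conventional), Saa3 cells (Saa3, Lcn2, C3; 836 and 2717), matrix cells (C1qtnf3, Postn, Cthrc1, Aspn; 2378 and 488) and Cxcl14/Prg4 cells (107 and 447). The remaining 3558 No-Touch and 2364 conventional fibroblasts passed none of these gates. Within the class, 3394 No-Touch and 2454 conventional cells lay close to a limit of these gates, so the states are ranges and not separate types.

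Has1 was at least 2.4 times higher in the No-Touch library in each of the 4 states. In Pi16 cells Has1 stood at 1049 CPM (1040 to 1059) in the No-Touch and 436 (426 to 447) in the conventional library, a ratio of 2.41 (2.34 to 2.47). Saa3 cells held 703 and 226 (ratio 3.11), matrix cells 507 and 191 (2.65) and Cxcl14/Prg4 cells 783 and 237 (3.30). The group from clustering that carried Cxcl14 and Prg4 held them at 8.95 and 6.51 times their level over all fibroblasts. Its leading genes were Scgb1b27, Scgb2b27 and Bpifa2, which were also among the leading genes of the epithelial cluster. The part of epithelial RNA in its values was not tested. Has1 differed less between the libraries in this group. It held 315 (288 to 345) and 214 (208 to 220) CPM in 141 No-Touch and 677 conventional cells, a ratio of 1.48 (1.34 to 1.62). Every No-Touch state lay above every conventional state. Pi16 cells had the highest Has1 in both libraries, and matrix cells the lowest.

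The other synthase differed less evenly. Has2 had ratios of 1.85 (1.72 to 1.98) in Saa3 cells, 1.66 (1.52 to 1.81) in matrix cells and 1.41 (1.33 to 1.503) in Pi16 cells. In Cxcl14/Prg4 cells it stood at 81.5 (72.9 to 90.7) in the No-Touch and 81.1 (76.6 to 85.9) in the conventional library, a ratio of 1.00 (0.886 to 1.14). Saa3 cells held the lowest Has2 of the 4 states in both libraries, at 53.2 (50.5 to 55.9) and 28.7 (27.4 to 30.2). The fibroblast group with the most Has2 was a small one led by Angptl7, Tenm2 and Apod, with 183 CPM (169 to 198) in 176 No-Touch and 117 (95.5 to 142) in 55 conventional cells.

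Ugdh and Gfpt2 were both concentrated in Pi16 cells. Ugdh stood there at 1495 CPM (1484 to 1507) in the No-Touch and 1280 (1262 to 1298) in the conventional library, and between 337 and 464 (No-Touch) and between 188 and 338 (conventional) in the other states. Gfpt2 stood at 1069 (1060 to 1079) and 1384 (1365 to 1403) in Pi16 cells, and in the other states between 202 and 398 (No-Touch) and between 234 and 560 (conventional). Ugdh was higher in the No-Touch library in all 4 states, with ratios between 1.17 and 1.79, and 1 passed 1.5 times (matrix cells). Gfpt2 was lower in all 4, with ratios between 0.710 and 0.946, and none passed 1.5 times. In the remaining fibroblasts, which passed none of the gates, Gfpt2 stood at 370 (366 to 373) and 560 (553 to 566). That ratio, 0.661 (0.651 to 0.671), did pass 1.5 times downward for Gfpt2. In Cxcl14/Prg4 cells its interval reached 1.01.

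**Figure D3:**
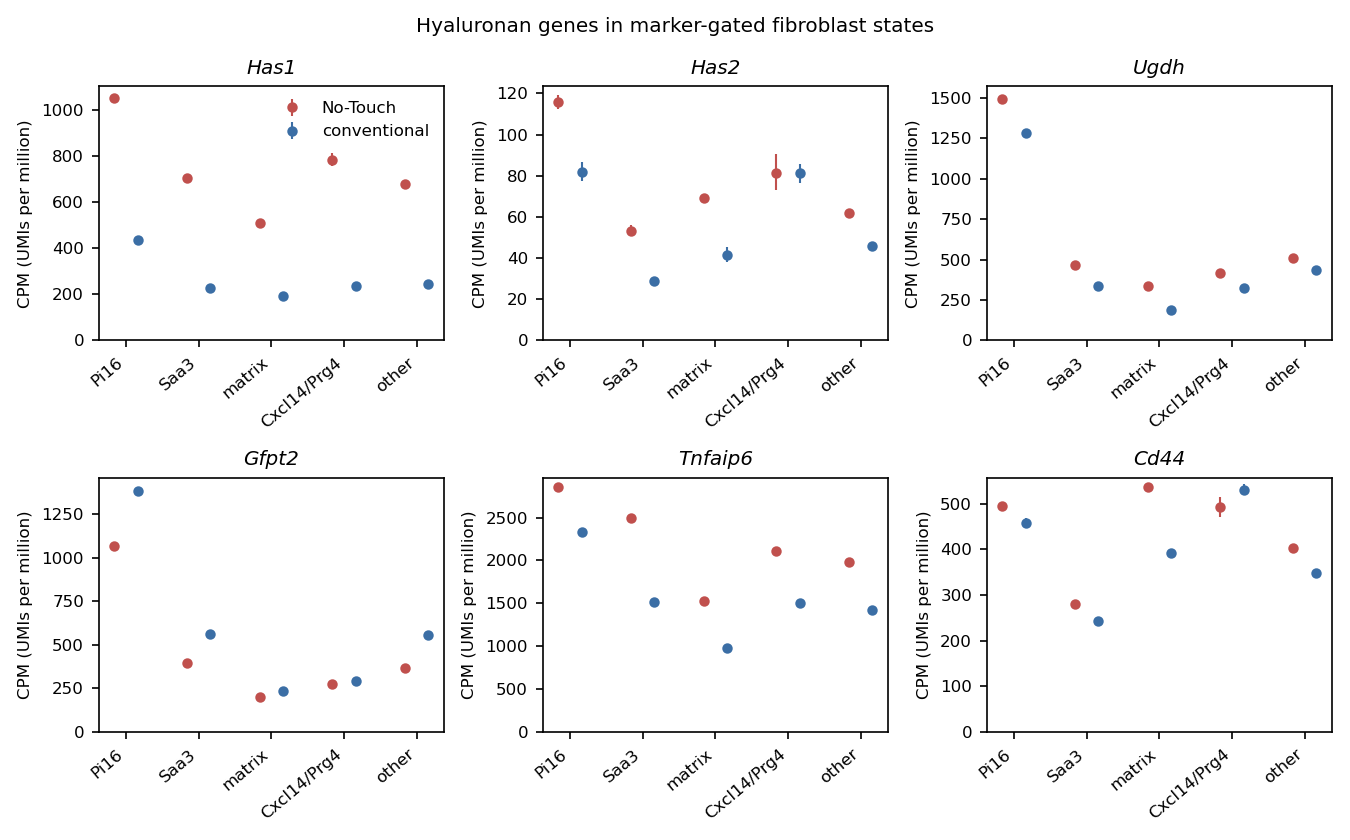
Level of each gene in CPM in 4 marker-gated fibroblast states and in the remaining fibroblasts, No-Touch in red and conventional in blue, with 95% counting intervals. Pi16 cells are highest in Has1, Ugdh, Gfpt2 and Tnfaip6 in both libraries, and Has1 is higher in the No-Touch library throughout.

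Tnfaip6 was higher in the No-Touch library in each state, with ratios of 1.65 (1.63 to 1.66) in Saa3 cells, 1.55 (1.52 to 1.58) in matrix cells, 1.40 (1.37 to 1.44) in Cxcl14/Prg4 cells and 1.22 (1.21 to 1.24) in Pi16 cells. Pi16 cells were again highest, with 2856 CPM in the No-Touch and 2337 in the conventional library. Cd44 had no state past 1.5 times, with ratios between 0.929 and 1.37. Its order was another: the lowest Cd44 lay in Saa3 cells, at 280 (274 to 286) and 243 (239 to 247). Among groups from clustering, Cd44 was high in the group led by Crabp2, Csf2 and Anxa8, with 767 (760 to 775) in 1044 No-Touch and 714 (694 to 734) in 182 conventional cells.

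**Figure D4:**
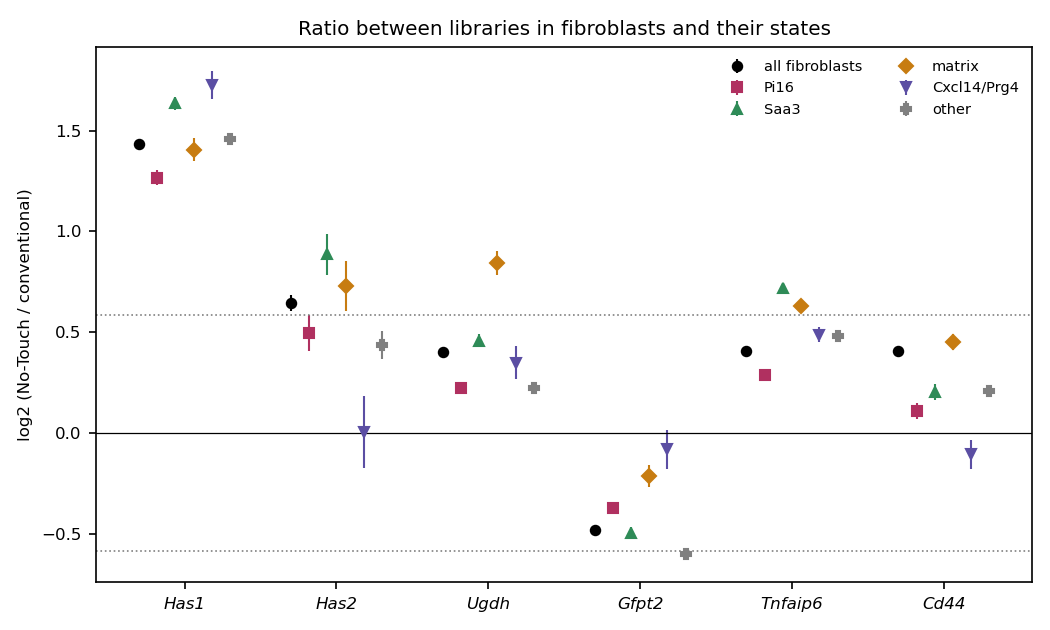
Log2 ratio (No-Touch over conventional) of each gene in all fibroblasts and in each state, with 95% counting intervals. Dotted lines mark 1.5 times in either direction: all Has1 points lie above, from 1.26 to 1.72, and all Gfpt2 points lie below 0.

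Clustering of the fibroblasts without the hyaluronan genes gave 16 groups, of which 7 held at least 50 cells from both libraries. Those 7 took in 5142 of 8276 No-Touch (62.1%) and 1856 of 6697 conventional fibroblasts (27.7%), so the ratios over all fibroblasts compare largely different groups. The group led by Cxcl13, Csf3 and Col6a5 alone held 17 No-Touch and 2599 conventional cells. Within the 7, Has1 was at least 1.5 times higher in the No-Touch library in 6, with log2 ratios between 0.56 and 2.15. The lowest was in the group that carried Cxcl14 and Prg4. Has2 and Ugdh each passed 1.5 times in 5 of 7, and Tnfaip6 in 3 of 7. Gfpt2 was at least 1.5 times lower in 2 of 7 and higher in 0, and Cd44 higher in 1. Short of that limit, directions were not uniform. Gfpt2 was higher in the No-Touch library in 1 of 7, that led by C1qtnf3 and Thbs4, with 198 and 156 CPM, a ratio of 1.27 (1.16 to 1.39). Tnfaip6 was higher in 6 of 7, but lower in that led by Angptl7 and Tenm2, with 743 and 861, a ratio of 0.862 (0.794 to 0.938). The counts past 1.5 times moved with the clustering resolution. At 0.3 and at 1, 6 groups held 50 cells from both libraries, and Has1 passed in all 6 at both. Ugdh passed upward in 4 at 0.3, but at 1 in 2 upward and 1 downward, with a lowest log2 ratio of -1.03. Has2 passed upward in 3 at 0.3 and in 4 at 1, with a lowest log2 ratio of -0.24 at 1. The groups with the most Ugdh and Gfpt2 each lay almost wholly in 1 library: 1817 No-Touch and 20 conventional cells in the group led by Sema3c, Dpp4 and Cd55, and 8 No-Touch and 1548 conventional cells in the group led by Edn1, Galnt15 and Zbtb16. Both carried the Pi16 state's markers, with Cd55 at 3.08 and 2.26 times its level over all fibroblasts. In them Has1 stood at 984 (976 to 992) in the No-Touch and 448 (441 to 456) in the conventional group, and Gfpt2 at 960 (953 to 968) and 1407 (1395 to 1420). Gfpt2 was also high, at 868 CPM (832 to 906), in a group of 5 No-Touch and 148 conventional cells led by Nkain4, Wnt4 and Wt1.

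Each gene was seen more often in fibroblasts with a UMI of another of the 6 than in those without. This held for all 30 ordered pairs in each library. Both orders of a pair always go in the same direction, so each pair is counted in both orders. The ratios of shares lay between 1.06 and 1.84 in the No-Touch and between 1.07 and 2.23 in the conventional library. The weakest pair was Gfpt2 with Cd44, seen in 56.8% of No-Touch fibroblasts with a Cd44 UMI and 53.5% of those without, and in 65.3% and 60.8% of conventional ones. After thinning to 3000 UMIs, Has1 was seen in 66.7% (65.6 to 67.8) of No-Touch fibroblasts with a Tnfaip6 UMI and in 52.2% (49.1 to 55.2) of those without. In conventional fibroblasts the shares were 42.7% (41.4 to 44.0) and 24.1% (21.8 to 26.4). Has2 was seen in 19.0% (17.9 to 20.1) of No-Touch fibroblasts with and 10.3% (9.35 to 11.4) of those without Ugdh, and in 13.7% (12.6 to 14.98) and 6.15% (5.37 to 7.001) of conventional ones. These shares describe sparse counts of cells from 1 library each.

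Mural cells were divided by markers in the same way, and the difference in Has2 lay in some of them. In pericyte-like cells (157 No-Touch and 384 conventional; Rgs5, Kcnj8, Abcc9, Cspg4, Higd1b) Has2 stood at 195 CPM (177 to 214) in the No-Touch and 90.0 (80.4 to 100) in the conventional library, a ratio of 2.17 (1.87 to 2.51). Smooth muscle-like cells (286 and 276; Myh11, Cnn1, Acta2, Tagln, Actg2) held 24.8 (20.7 to 29.4) and 25.9 (20.99 to 31.6), a ratio of 0.957 (0.729 to 1.26). Mural cells that passed neither gate (86 and 286) held 183 (160 to 209) and 78.5 (68.9 to 89.0). Has2 was thus lower in smooth muscle-like than in pericyte-like cells in both libraries. The pericyte-like cells came largely from different groups of the clustering: 124 of the No-Touch and 9 of the conventional cells lay in the group led by Hist1h2ap, Tgtp2 and Ifi204. In the groups led by Irf8 and Cxcl9 and by Cpm and Dusp2 lay 5 and 6 No-Touch cells, and 167 and 137 conventional cells. Has2 stood at 229 CPM in No-Touch cells of the first group, and at 138 and 36.2 in conventional cells of the others. Of the 2 mural groups with 50 cells from both libraries, that led by Nts, Cpxm2 and Vtn held 94.7 (75.3 to 118) and 52.4 (44.1 to 61.7), a ratio of 1.81 (1.36 to 2.39), and that led by Pln, Tesc and Pcp4l1 held 7.80 and 6.83.

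Cd44 was also lower in smooth muscle-like than in pericyte-like cells, but its difference between the libraries lay in the smooth muscle-like cells. In smooth muscle-like cells it stood at 132 CPM (123 to 143) in the No-Touch and 277 (260 to 294) in the conventional library, a ratio of 0.478 (0.433 to 0.527). In pericyte-like cells it stood at 366 (341 to 392) and 347 (328 to 367), a ratio of 1.05 (0.964 to 1.15). The smooth muscle group led by Pln, Tesc and Pcp4l1, with 121 No-Touch and 157 conventional cells, held 89.7 and 201 CPM of Cd44. Smooth muscle-like cells made up 54.1% of No-Touch and 29.2% of conventional mural cells, so the level over all mural cells also moves with this makeup. Summed fibroblast markers in mural cells were 2280 CPM in the No-Touch and 1696 in the conventional library, and their part in these values was not tested.

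**Figure D5:**
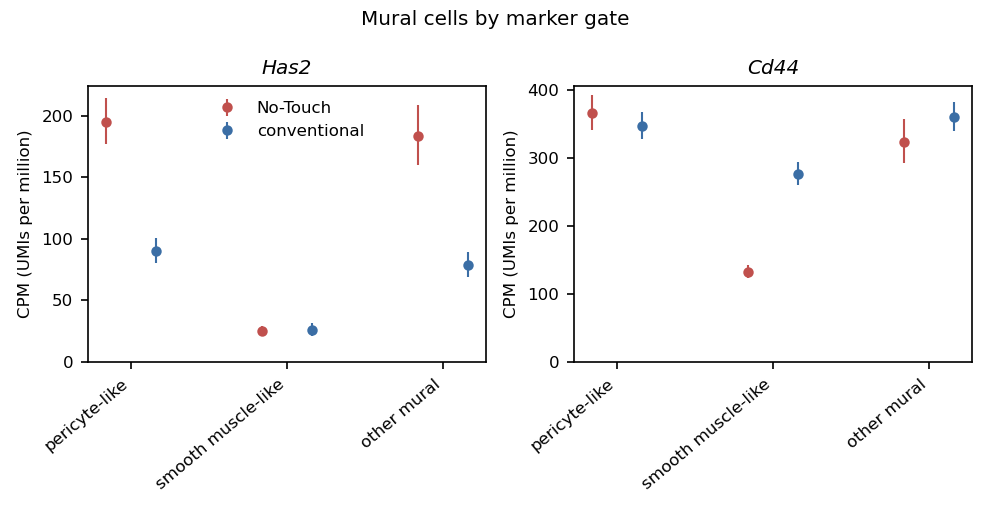
Has2 and Cd44 in CPM in pericyte-like, smooth muscle-like and other mural cells, No-Touch in red and conventional in blue, with 95% counting intervals. Has2 is higher in No-Touch pericyte-like cells (195 and 90.0), and Cd44 is lower in No-Touch smooth muscle-like cells (132 and 277).

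The rest of the pathway, 42 genes listed with earlier results of these data known, mostly stayed within 1.5 times in fibroblasts. Of the 22 that reached 10 CPM, 0 were higher and 3 (13.6%) lower, beside 7.92% and 3.64% of all genes, and their median log2 ratio was -0.07 against 0.05 over all genes. The 3 were Spp1 (osteopontin, a ligand of Cd44) with 92.2 in the No-Touch and 333 CPM in the conventional library, Cemip2 (a cell surface hyaluronidase) with 27.1 and 45.8, and Hk2 (hexokinase) with 169 and 278. Spp1 was among the leading genes of a whole-data fibroblast cluster of 12 No-Touch and 369 conventional cells, led by Mmp13 and Grem1. The part of this makeup in the Spp1 difference was not tested. Gpi1, which makes the sugar phosphate that Gfpt2 uses, stood at 98.7 in the No-Touch and 142 in the conventional library. Of the 8 precursor enzymes beside Ugdh and Gfpt2, 0 passed 1.5 times upward and 1 downward (Hk2). For 5 of them the ratio and its interval lay above 1, between 1.15 and 1.37, and for 3 below 1, between 0.607 and 0.859. The third synthase gene, Has3, stood at 0.252 in No-Touch and 0.296 in conventional fibroblasts. Ptx3, a partner of Tnfaip6 in matrix assembly, stood at 1128 and 1305, and Vcan (versican) at 350 and 315.

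In mural cells 25 of the 42 genes reached the limit, of which 6 were higher and 4 lower, beside 13.1% and 7.12% of all genes. Itih4, of the heavy chain family, stood at 176 in the No-Touch and 41.0 CPM in the conventional library, and Acan (aggrecan) at 56.1 and 19.0. Srgn, a proteoglycan that binds Cd44, stood at 26.0 and 100. In blood endothelium 3 of 26 were higher and 3 lower, beside 13% and 6.64% of all genes. Cemip2 stood there at 200 and 325, and Ptx3 at 162 and 80.3, below its 223 and 156 in neutrophils. The receptor Lyve1 stood at 5.32 in the No-Touch and 22.8 in the conventional blood endothelium, where summed lymphatic markers were 54.5 and 82.4. In lymphatic endothelium, which Lyve1 marks, it stood at 3594 (3532 to 3658) and 3452 (3393 to 3513), and 2 of 27 pathway genes were higher and 3 lower, beside 10.2% and 8.08% of all genes.

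By pattern over the 12 points of 6 classes and 2 libraries, the gene most like each of the 6 was a different one. Even so, Ugdh, Gfpt2 and Tnfaip6 shared much of their pattern. Among 6023 genes the highest Pearson correlation of log2 levels was with Sfrp2 for Has1 (0.96), Olfml2b for Has2 (0.98), Col1a2 for Ugdh (0.98), Timp1 for Gfpt2 (0.98), Col3a1 for Tnfaip6 (0.98) and Metrnl for Cd44 (0.98). Tnfaip6 correlated at 0.91 with Has1, 0.94 with Ugdh and 0.90 with Gfpt2, and Ugdh at 0.90 with Gfpt2. Col3a1 was also among the 5 genes most like Ugdh (0.96). Cd44 correlated less with the other genes, between 0.39 and 0.60. The points share 2 libraries and the free RNA of fibroblasts, so these values describe the pattern only. Immediate early and heat shock genes, which dissociation can induce, summed to 21483 CPM in No-Touch and 20692 CPM in conventional fibroblasts (10 genes, 1 higher and 1 lower), and their part in the differences was not tested.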

How the data were processed

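The authors deposited 1 count matrix per library, of raw UMI counts per gene and cell barcode. Reads were aligned to mm10 with Cell Ranger 3.1.0, per the submitters' processing notes, whereas cellranger 6.0.0 stands in the file header, so the version is not settled. The deposited counts held 12450 No-Touch and 11899 conventional barcodes, with 373319906 and 200851272 UMIs.

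A barcode was kept if it had 500 or more genes, 1000 or more UMIs and a mitochondrial share of 10% or less. Scrublet then removed 1063 No-Touch barcodes (9.22%) and 247 conventional ones (2.36%). Its automatic threshold was used for the conventional library. It marked none in the No-Touch library, where the highest scores at the rate of 0.8% per 1000 cells were removed instead. Each cell was assigned to a class where its mean marker score reached 0.25, led the next class by 0.1 and rested on at least 3 markers. Clusters named from the same markers gave the same class for 98.9% of the cells that both the gate and the clusters put in a class. Counting ungated cells too, the gate gave the same class to 66.8% of the neutrophil cluster and 64.3% of the T or NK cluster. UMIs were summed per class and library and divided by the class total.

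Intervals are Garwood for levels, Clopper-Pearson for shares and exact binomial for ratios. UMIs of 1 library are not independent samples of a graft. Scanpy 1.11.5, scipy 1.17.1 and numpy 2.4.6 were used in Python 3.11.15, with edgeR 4.0.16 (TMM factors) and DESeq2 1.42.0 (median-of-ratios factors) in R 4.3.3 for alternative scalings only. The comparison was tested on simulated data for 8167 genes in fibroblasts, of which 200 were changed.

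The 6 genes, the pathway list, the markers and the rules were chosen with earlier results of these data known. Of the 42 other pathway genes the text names up to 4 per class with the largest log2 ratio among those of at least 20 CPM, plus Has3, Lyve1, Vcan and Ptx3, and for each of the 6 genes the gene most like it in pattern. Named by values seen were the groups and states with the highest levels. The 14 alternatives of scaling, filters, doublets, gate, depth, weighting, pseudocount, minimum and fold are in the closing section. The removal of clusters led by markers of another class and the gated states were chosen after seeing the data.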

Additional observations from a re-analysis of the deposited data

Results flagged for a closer look

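Cd44 differed in direction between cell classes. It was higher in the No-Touch library in blood endothelium, by a ratio of 1.76, and in lymphatic endothelium, by a ratio of 1.95, but lower in smooth muscle-like cells, with a ratio of 0.478. Thinned to 3000 UMIs, the log2 ratios in blood and lymphatic endothelium were 0.55 and 0.27, both short of 1.5 times. With 1 library per group, the difference between these classes was not tested. The endothelial values are low: thinned to 3000 UMIs, Cd44 was seen in 13.9% of No-Touch and 10.1% of conventional blood endothelial cells, and in 11.3% of No-Touch and 9.56% of conventional lymphatic endothelial cells. In mural cells the shares were 40.5% in the No-Touch and 55.5% in the conventional library. Summed fibroblast markers in blood endothelium were 1942 CPM in the No-Touch and 999 in the conventional library, and their part in the endothelial ratios was not tested.

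A signal also appeared in a class that no comparison used. Of the cells gated as mesothelial, 0 were from the No-Touch and 25 from the conventional library. In them Has1 stood at 304 CPM (252 to 363) and Gfpt2 at 941 (848 to 1041). Both lay above the 36.9 and 66.5 CPM of conventional neutrophils. Gfpt2 also lay above its level of 586 in conventional fibroblasts. With no No-Touch cells in the class, no difference between libraries can be given.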

How the results depend on the processing

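Has1 passed 1.5 times in fibroblasts, mural cells and both endothelial classes under all 14 alternatives, with fibroblast log2 ratios between 1.37 and 1.46, though in mural and endothelial cells it lay at or below the leukocyte background. Has2 passed it in fibroblasts under 13 of 14 (all but the fold of 2). A pseudocount cannot change these calls, which use the ratio of levels without one, and the log2 ratio of Has2 was 0.55 with a pseudocount of 10, 0.58 with median-of-ratios scaling (just past the limit as a ratio of levels) and 0.75 with thinning. The fibroblast ratio of Gfpt2 stayed between -0.53 and -0.47. Of the 6 genes in mural cells, 2 were lower under TMM and under median-of-ratios scaling, while 0 were lower with the same share of doublet scores removed, with clusters in place of the gate, with 1 more marker and at a fold of 2. In mural cells 2 were higher with a mitochondrial limit of 5% and with clusters. At a fold of 2, 1 of the 6 was higher in fibroblasts and 1 in blood endothelium. Of the pathway genes, a minimum of 1 CPM gave 1 higher in fibroblasts, 10 higher in mural cells and 7 lower in lymphatic endothelium. A minimum of 50 gave 3 higher in mural cells, 1 higher and 1 lower in blood endothelium, and 1 higher and 1 lower in lymphatic endothelium. A fold of 2 gave 1 lower in fibroblasts, 3 higher and 2 lower in mural cells and 0 higher in lymphatic endothelium. Clusters gave 2 higher in mural cells, 1 in blood and 0 in lymphatic endothelium. Thinning gave 5 higher in blood endothelium, and 5 higher and 6 lower in lymphatic endothelium. In lymphatic endothelium median-of-ratios scaling gave 1 higher and equal doublet removal 4. With another minimum or fold the counts moved because more or fewer genes could pass, and for the other settings the cause was not tested. Of the other values 69 moved and 325 did not, and 0 reversed a called direction. Both scalings shifted the median log2 ratio of all genes in mural cells to -0.04, against 0.07, and those of Tnfaip6 and Ugdh to -0.05 and -0.07 at the lowest. No paired analysis was possible because each group has 1 library. Depth limits Has2, which had a UMI in 15.2% of No-Touch and 9.77% of conventional fibroblasts at 3000 UMIs.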
